A study of Homo sapiens with 12 samples.

Results

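Transcripts of 9 B cell antigens and therapy targets were followed in 2 human mantle cell lymphoma lines with and without knockdown of the kinase NIK. The genes were MS4A1, CD22, CD24, CD37, CD72, CR2, FCER2, FCRL1 and FCRLA, taken by name whatever their values. They made up 9 of 19775 genes and 26 of 41091 probe sets that carry 1 gene symbol, and 8 of the 9 genes (21 of the 26 probe sets) had a mean signal over the low-signal filter of 12.55. Z-138 is TRAF2-mutant (a nonsense change) and Maver-1 has lost TRAF3 by deletion, so all groups hold a lesion in the complex that keeps NIK protein low. Each line carried a doxycycline-inducible hairpin and was kept under puromycin, the selection for it, as a non-targeting control (NTC) or with 1 of 2 hairpins against MAP3K14, the NIK gene, called NIKsh#1 and NIKsh#2. The resulting 6 cultures were kept for 7 days at 0 or 100 ng/ml doxycycline and gave 12 arrays, 1 per culture and dose. A line and dose thus held 1 NTC array and 2 NIKsh arrays, so the replicates within a line are different hairpins rather than repeated cultures.

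These genes encode proteins by which B cells are recognised and drugged. MS4A1 encodes CD20, the target of rituximab; CD22 and CD72 encode inhibitory receptors that recruit the phosphatase SHP-1 to the B cell receptor; CD37 encodes a tetraspanin of mature B cells and CD24 a small glycosylated, lipid-anchored ligand of Siglec-10. CR2 encodes CD21, the complement receptor that works with the tetraspanin CD81, and FCER2 encodes CD23, the low-affinity IgE receptor. FCRL1 is a surface receptor related to Fc receptors, and FCRLA is its intracellular relative in the endoplasmic reticulum, so the last of these is a B cell antigen but not a surface one. NIK drives the alternative NF-kB pathway, which supports the survival of mature B cells downstream of receptors such as the BAFF receptor and CD40.

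Promoter windows from RefSeq (GRCh38.p14, 250 bases before to 50 after the start of the transcript) were matched to 7 of the 9 genes by symbol, and CD37 and MS4A1 had no entry. Windows of 4 genes are printed because CD72 and FCRLA moved together across the arrays, CD24 is the gene with the most kB matches, and FCER2 was the member higher in Z-138. Capitals mark matches, on either strand, to the kB consensus bound by NF-kB, to the octamer ATGCAAAT bound by OCT factors, or to TGGGAA, the core bound by the NOTCH partner RBPJ.
CD72, chr9:35618364-35618663, minus strand: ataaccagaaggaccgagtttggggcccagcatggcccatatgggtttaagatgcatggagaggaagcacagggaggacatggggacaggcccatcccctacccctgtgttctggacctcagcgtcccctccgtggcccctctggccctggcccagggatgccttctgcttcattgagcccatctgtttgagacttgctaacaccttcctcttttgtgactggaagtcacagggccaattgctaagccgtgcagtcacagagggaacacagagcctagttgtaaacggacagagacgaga
FCRLA, chr1:161706979-161707278, plus strand: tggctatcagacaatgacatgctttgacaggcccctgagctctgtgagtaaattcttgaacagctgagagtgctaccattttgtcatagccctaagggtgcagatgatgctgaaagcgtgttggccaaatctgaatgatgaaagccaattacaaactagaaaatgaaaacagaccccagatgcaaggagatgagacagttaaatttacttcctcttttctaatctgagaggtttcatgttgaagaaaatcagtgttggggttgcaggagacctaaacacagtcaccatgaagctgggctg
CD24, chr6:106975578-106975877, minus strand: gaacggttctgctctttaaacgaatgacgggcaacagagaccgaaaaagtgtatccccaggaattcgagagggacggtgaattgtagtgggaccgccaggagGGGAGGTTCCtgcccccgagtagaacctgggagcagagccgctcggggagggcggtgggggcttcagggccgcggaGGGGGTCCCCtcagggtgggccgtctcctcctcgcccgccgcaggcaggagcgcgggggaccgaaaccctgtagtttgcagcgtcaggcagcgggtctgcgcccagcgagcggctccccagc
FCER2, chr19:7699392-7699691, minus strand: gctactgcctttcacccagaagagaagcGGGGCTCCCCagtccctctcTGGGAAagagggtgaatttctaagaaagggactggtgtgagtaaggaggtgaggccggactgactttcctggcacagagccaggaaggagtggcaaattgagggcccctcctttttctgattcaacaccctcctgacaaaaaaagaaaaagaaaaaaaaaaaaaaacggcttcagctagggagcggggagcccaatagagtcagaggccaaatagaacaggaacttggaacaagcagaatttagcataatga

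The windows of CD72 and FCRLA held none of these letters, nor did those of CD22, CR2 and FCRL1. The CD24 window held 2 kB matches, which began at -148 and -72 from the start of the transcript. Of the windows at 2 other CD24 starts, 1 held kB matches at -234 and -92 and an RBPJ match at -109, and the other an RBPJ match at -238. The first of these overlaps the printed window, and its kB match at -234 is the same stretch as the printed match at -72. The FCER2 window, at the downstream of its 2 starts, held a kB match at -222 and an RBPJ match at -202, and the window at its other start held an RBPJ match at -186. Of 35116 windows of the same length, 11.3% held a kB match, 1.77% the octamer and 24.0% the RBPJ core. A match is a description of letters and not a bound site.

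The signals are the deposited MAS5 values, and array medians ran from 10.6 to 14.1. Of the mantle cell lymphoma markers, CD79A, CD79B, PAX5, CCND1 and SOX11 were well above the filter on all 12 arrays (lowest signal 309, in PAX5), whereas CD5 lay between 0.5 and 1.6 in Z-138 and between 33.7 and 70.8 in Maver-1. Of the monocyte markers, CD14 reached at most 3.1, but LYZ, ITGAM and MS4A7 reached 25.3, 33.4 and 40.3. The Maver-1 means of these last genes were 16.8, 23.4 and 29.7, over the filter. The summed signal of 8 measured monocyte genes was 30.9 to 53.4 in Z-138 and 55.9 to 96.8 in Maver-1. Of the 11 measured T and NK cell markers, CD3D and CD3E reached at most 8.3 and 6.3 and CD3G and PRF1 at most 178 and 264, and the summed signal was 299 to 559 in Z-138 and 271 to 341 in Maver-1. MAP3K14 itself gave 55.2 without and 33.3 with doxycycline under NIKsh#1 in Z-138, and 52.0 and 49.2 under NIKsh#2. The matching Maver-1 signals were 86.9 and 63.4, then 79.3 and 55.7. With the control hairpin they were 46.4 and 55.4 (Z-138), then 77.2 and 132.7 (Maver-1), so MAP3K14 was lower with doxycycline in all 4 NIKsh cultures and in neither NTC culture. RNA quality was read from the ACTB control probe sets, as their 3' over their 5' signal. This ratio was higher with doxycycline in every Z-138 culture, at 2.33 and then 6.34 for the control hairpin, 2.86 and 4.62 under NIKsh#1, and 2.92 and 5.09 under NIKsh#2. The Maver-1 ratios were 6.88 and 4.43, 4.68 and 4.32, and 3.65 and 3.80 in the same order. In bulk RNA, fewer cells carrying a transcript and less of it per cell cannot be told apart.

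**Figure D1:**
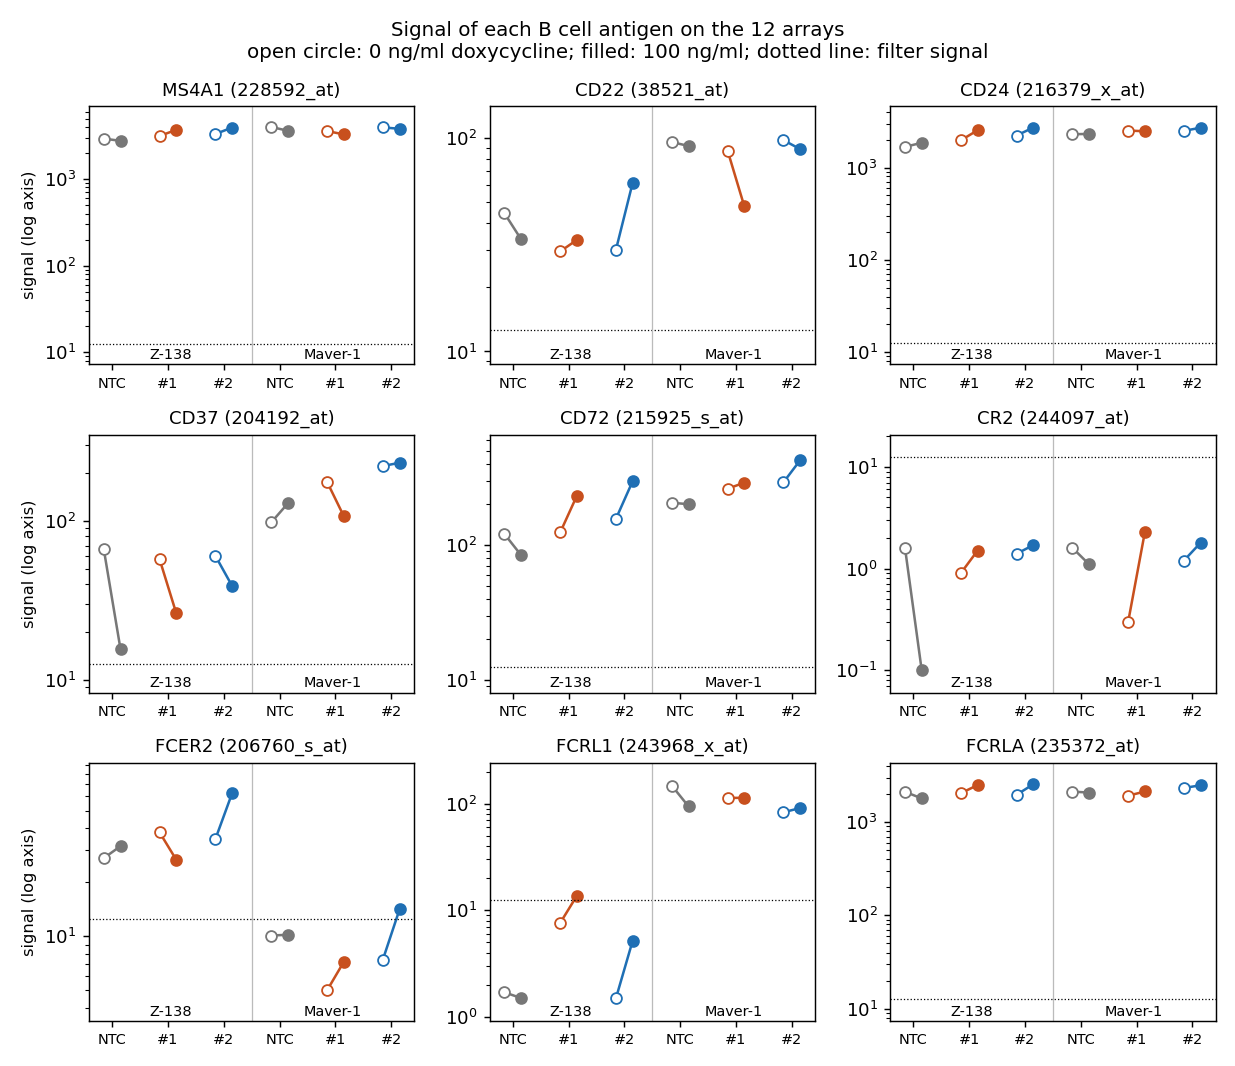
Signal (log axis) of the probe set standing for each gene in the 3 cultures of Z-138 (left) and Maver-1 (right), without (open) and with (filled) doxycycline, joined within a culture. FCRL1 in Z-138, FCER2 in Maver-1 and CR2 throughout lie near or under the dotted filter line at 12.55, and MS4A1, CD24 and FCRLA are bright on every array.

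How the 2 lines carry these antigens before any knockdown was asked on the 6 untreated arrays, 3 per line. The inhibitory receptors CD22 and CD72, the tetraspanin gene CD37 and, by a smaller margin, MS4A1 and CD24 were lower in Z-138 than in Maver-1. FCRL1 was near the background in Z-138 and FCER2 near it in Maver-1, while FCRLA, which was bright in both, did not pass the test. In all, 7 of the 8 members tested passed limma's test at an adjusted p under 0.05, beside 60.2% of all genes. Of these, 6 were lower in Z-138, beside 34.8% of all genes, and 1 was higher, beside 25.5%. Their median difference (Z-138 minus Maver-1, log2) was -0.61, against -0.08 over all genes. FCRL1 and FCER2 passed the signal filter through the line in which they are bright, so a difference between the lines was built into their being tested.

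With the cultures in the order NTC, NIKsh#1, NIKsh#2, the untreated CD22 signals were 44.4, 29.4 and 30.0 in Z-138 and 95.6, 87.2 and 97.6 in Maver-1. The lines did not overlap, a separation met by 6 members in this direction (37.9% of all genes) and by 1, FCER2, in the other (27.9%). The log2 difference of CD22 was -1.38 ± 0.19 (SE), adjusted p = 3.35e-05. Its other probe sets over the filter differed by -1.36 ± 0.22 and -0.94 ± 0.33, both passing the fit over every probe set (adjusted p = 0.00028 and 0.0286), and the last CD22 probe set stayed under the filter, at most 5.3. The -0.94 belongs to 217422_s_at, whose untreated mean was 10.6 in Z-138, under the filter, and 24.2 in Maver-1. A difference between the lines was thus built into the testing of that probe set. For CD72, the other inhibitory receptor, the untreated signals were 121, 124 and 157 in Z-138 and 206, 261 and 291 in Maver-1. These again did not overlap, with a difference of -0.90 ± 0.16 (adjusted p = 0.000265).

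CD37 stood at 66.3, 57.4 and 60.3 in Z-138 and at 97.7, 176 and 221 in Maver-1, a difference of -1.31 ± 0.24 (adjusted p = 0.000354). Its spread was uneven, since the 3 Z-138 arrays lay close together and the Maver-1 NTC array was the lowest of its line. The mean of both CD37 probe sets gave -0.38 and did not pass (adjusted p = 0.103), with the probe set 238321_at in that mean, which had signals of at most 4.9 in either line. FCRL1 signals were 1.7, 7.6 and 1.5 in Z-138 and 148, 113 and 83.0 in Maver-1, so the receptor was near the background in Z-138 and clear in all Maver-1 cultures. Its fitted difference was -4.24 ± 0.33 (adjusted p = 1.53e-07), and against the filter signal its untreated Maver-1 mean was at least 9.13-fold higher.

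FCER2 ran the other way, at 27.2, 37.8 and 34.7 in Z-138 and 10.1, 5.0 and 7.4 in Maver-1, a difference of 1.80 ± 0.26 (adjusted p = 4.73e-05) and at least 2.65-fold against the filter signal. Its second probe set differed by 2.03 ± 0.27 (adjusted p = 5.33e-05 over every probe set). CD37, FCER2 and FCRL1 kept the lines apart on all 12 arrays, doxycycline included, as did 36.9% of all genes.

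The bright antigens differed less. MS4A1 signals were 2935, 3148 and 3319 in Z-138 and 4006, 3592 and 3957 in Maver-1, on the log2 scale 11.61 ± 0.09 (SD, n = 3) against 11.91 ± 0.09 (SD, n = 3). The difference of -0.30 ± 0.06 (SE) passed (adjusted p = 0.00122), as did that of the probe set 228599_at, -0.70 ± 0.10 (adjusted p = 8.68e-05 over every probe set). The probe sets 210356_x_at and 217418_x_at of MS4A1 differed by -0.22 ± 0.09 and -0.19 ± 0.09, which did not pass (adjusted p = 0.0537 and 0.0982). CD24 stood at 1676, 1972 and 2224 in Z-138 and at 2296, 2518 and 2499 in Maver-1, a difference of -0.32 ± 0.09 (adjusted p = 0.00722). Of its 6 probe sets 4 passed the fit over every probe set, beside 12543 of all 22823 probe sets. All 6 differences were negative, from -0.47 to -0.20. CD24 has near-identical gene copies in the genome, so that the names ending in x_at, which mark probes able to pick up related transcripts, leave its values uncertain. With the mean of both doses per culture, MS4A1 (-0.18, adjusted p = 0.0987) and CD24 (-0.21, adjusted p = 0.113) no longer passed.

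FCRLA stood at 2111, 2036 and 1962 in Z-138 and 2121, 1917 and 2322 in Maver-1, a difference of -0.05 ± 0.08 (adjusted p = 0.554) with overlapping lines. One probe set, 235400_at, was lower in Z-138 by the fit over every probe set (-0.37 ± 0.09, adjusted p = 0.0032), and the other 2 did not pass. CR2 could not be compared: its 2 probe sets lay between 0.1 and 2.3 on all 12 arrays, far under the filter.

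**Figure D2:**
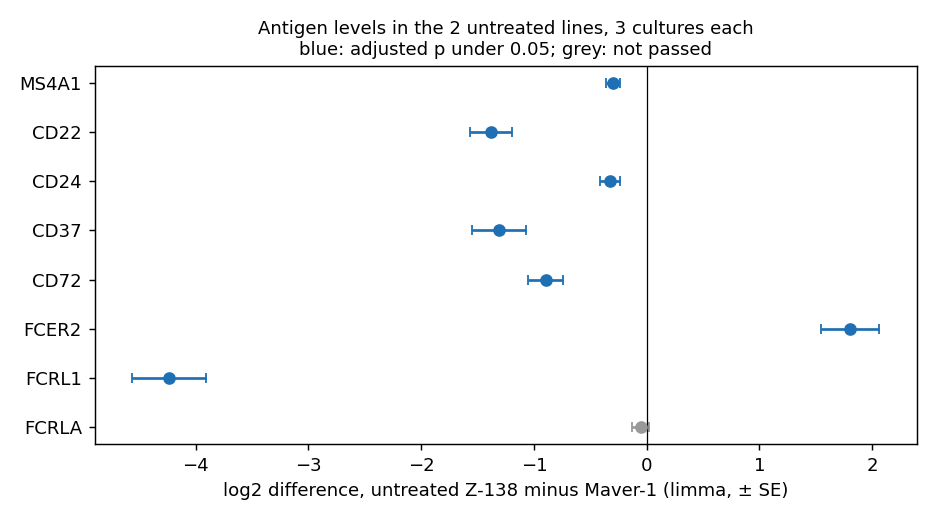
Difference in log2 signal between untreated Z-138 and Maver-1 (3 cultures each) for the 8 antigens over the filter, with the SE of the limma fit; blue points passed. FCER2 lies to the right of 0 at 1.80, FCRL1 farthest to the left at -4.24, and FCRLA at -0.05.

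What doxycycline did to the antigens when a NIK hairpin was present was asked in the 4 NIKsh cultures and set against the 2 NTC cultures. On the probe set standing for each gene, CD72, FCRLA and FCRL1 were the members with a positive log2 change in all 4 NIKsh cultures, higher there than in both NTC cultures. However, none of the 8 members passed limma's test over all genes. Changes positive in all 4 NIKsh cultures were met by 9.95% of all genes. Of all genes, 0.0433% passed. At an unadjusted p under 0.05 there were 3 members (CD24, CD72 and FCRLA), beside 8.98% of all genes. The median change of the members was 0.21, against 0.01 over all genes, and 7 of 8 were positive, against 51.7% of all genes.

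CD72 signals went in Z-138 from 121 to 84.1 in NTC, from 124 to 232 in NIKsh#1 and from 157 to 298 in NIKsh#2. In Maver-1 they went from 206 to 201 in NTC, from 261 to 289.7 in NIKsh#1 and from 291 to 424 in NIKsh#2. The NIKsh changes of both hairpins in Z-138, 0.89 and 0.91, exceeded those in Maver-1, 0.15 and 0.54, and both NTC changes were below 0, at -0.51 and -0.03. The fitted NIKsh change was 0.62 ± 0.17 (SE, adjusted p = 0.264) and its difference from the NTC change 0.89 ± 0.29 (adjusted p = 0.876). The difference passed where culture was left out of the model (1.20, adjusted p = 0.0296) or was a random term (1.21, adjusted p = 0.0281). In those settings 103 and 116 of all 11548 genes passed, in place of 0.

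FCRLA, the intracellular relative of the Fc receptors, went in Z-138 from 2111 to 1794 in NTC, from 2036 to 2491 in NIKsh#1 and from 1962 to 2545 in NIKsh#2. In Maver-1 it went from 2121 to 2072 in NTC, from 1917 to 2128 in NIKsh#1 and from 2322 to 2481 in NIKsh#2. On this probe set, 235372_at, each NIKsh culture was higher with doxycycline and each NTC culture slightly lower, with changes of 0.10 to 0.38 against -0.23 and -0.03. On 235400_at both NTC changes were positive, at 0.07 (Z-138) and 0.05 (Maver-1), above the 0.02 of Maver-1 NIKsh#1. On 235401_s_at they were -0.69 (Z-138) and 0.055 (Maver-1), below all 4 NIKsh changes. The fitted change on 235372_at was 0.23 ± 0.07 (adjusted p = 0.347), and the difference from NTC 0.36 ± 0.12 (adjusted p = 0.878). FCRL1 had changes of 0.66 and 0.87 in Z-138, where its highest signal was 13.7, so that these start from the background. In Maver-1, where it was clearly measured, its signals went from 148 to 94.3 in NTC, from 113 to 114 in NIKsh#1 and from 83.0 to 91.0 in NIKsh#2, and the NIKsh changes were 0.00 and 0.13. In the NTC culture of that line the change was -0.63. The fitted NIKsh change of FCRL1 was 0.41 ± 0.22 (adjusted p = 0.652), and its difference from NTC 0.76 ± 0.39 (adjusted p = 0.884). The NIKsh change of FCRL1 came down to 0.26 without Z-138 NIKsh#2, 0.27 with the ACTB ratio as a covariate, 0.18 at a pseudocount of 16 and 0.15 on the mean of its probe sets. The other FCRL1 probe set, 235982_at, had a mean signal of 10.2, under the filter. Its NIKsh changes were 0.25 and -0.07 in Z-138 and 0.17 and -0.82 in Maver-1. Its NTC changes were -0.415 (Z-138) and -0.19 (Maver-1). The pattern of all 4 NIKsh changes lying above both NTC changes, found in these 3 of 8 members, was met by 7.12% of all genes.

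None of the 8 members passed in the NTC cultures, where 0 members had an unadjusted p under 0.05 and 0.0% of all genes passed (3.35% at an unadjusted p under 0.05). Nor did any pass in the difference between NIKsh and NTC, where 0.0% of all genes passed. There 2 members (CD72 and FCRLA) had an unadjusted p under 0.05, beside 5.43% of all genes. The member medians were -0.18 in NTC and 0.25 in the difference, and all 8 differences were above 0, beside 45.9% of genes, although those of CD22, CD37 and FCER2 turned negative under some alternatives. NIKsh and NTC cultures that had not met doxycycline gave no member that passed and 0.0% of all genes. CD24 alone of the members had an unadjusted p under 0.05 there (0.22 ± 0.08, adjusted p = 0.989), beside 4.78% of all genes.

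**Figure D3:**
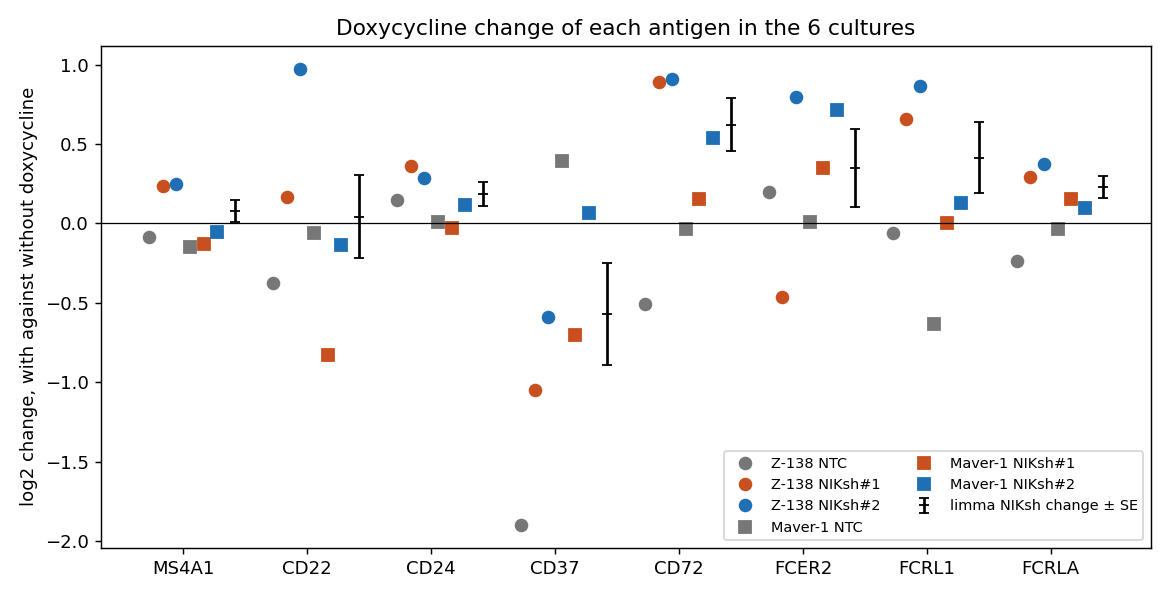
Change in log2 signal with against without doxycycline in each of the 6 cultures (circles Z-138, squares Maver-1; grey NTC, orange NIKsh#1, blue NIKsh#2), with the limma NIKsh change and its SE in black. The grey points of CD72, FCRL1 and FCRLA lie under all 4 coloured points, and the Z-138 NTC point of CD37 is the lowest of all at -1.90.

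MS4A1, the CD20 gene, took opposite signs in the 2 lines. Its signals in Z-138 went from 2935 to 2767 in NTC, from 3148 to 3714 in NIKsh#1 and from 3319 to 3943 in NIKsh#2. In Maver-1 they went from 4006 to 3617 in NTC, from 3592 to 3287 in NIKsh#1 and from 3957 to 3815 in NIKsh#2. The NIKsh changes were thus 0.24 and 0.25 in Z-138 and -0.13 and -0.05 in Maver-1, and the Maver-1 NTC change of -0.15 was lower still. The difference between the lines, 0.33 ± 0.08 (SE), did not pass (adjusted p = 0.273), and over both lines the change was 0.08 ± 0.07 (adjusted p = 0.828). On the probe sets 217418_x_at and 210356_x_at the Z-138 NTC culture went from 2070.2 to 1158 and from 1999.6 to 1184, changes of -0.84 and -0.75 that the brightest probe set, at -0.09, did not show. The ACTB ratio changed most in the same culture, and its part in the disagreement was not tested.

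CD22 also took opposite signs, with NIKsh changes of 0.16 and 0.97 in Z-138 and -0.83 and -0.14 in Maver-1. In Z-138 its signals went from 44.4 to 33.5 in NTC, from 29.4 to 33.3 in NIKsh#1 and from 30.0 to 61.8 in NIKsh#2. In Maver-1 they went from 95.6 to 91.6 in NTC, from 87.2 to 47.8 in NIKsh#1 and from 97.6 to 88.6 in NIKsh#2. The 2 hairpins disagreed in size in each line, and 1 culture carried most of the value in each. The fitted difference between the lines was 1.05 ± 0.42 (adjusted p = 0.543). Over both lines the change was 0.04 ± 0.26 (adjusted p = 0.983), and its sign depended on the culture left out, from -0.27 without Z-138 NIKsh#2 to 0.33.

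CD24, the Siglec-10 ligand, went in Z-138 from 1676 to 1854 in NTC, from 1972 to 2532 in NIKsh#1 and from 2224 to 2714 in NIKsh#2. In Maver-1 it went from 2296 to 2315 in NTC, from 2518 to 2472 in NIKsh#1 and from 2499 to 2703 in NIKsh#2. Both Z-138 NIKsh changes (0.36 and 0.29) were above both Maver-1 NIKsh changes (-0.03 and 0.11), and the fitted change over both lines was 0.18 ± 0.07 (adjusted p = 0.488). In the Z-138 NTC culture its probe sets ran from 0.14 on the brightest to -0.87 on 208650_s_at. The NTC change of CD24, 0.08 on the brightest probe set, turned to -0.15 on the mean of all its probe sets.

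CD37, the tetraspanin gene, was the member with a negative change in all 3 Z-138 cultures, NTC included, as were 15.3% of all genes. Its signals went from 66.3 to 15.6 in NTC, from 57.4 to 26.2 in NIKsh#1 and from 60.3 to 39.0 in NIKsh#2 in Z-138. In Maver-1 they went from 97.7 to 129 in NTC, from 176 to 107 in NIKsh#1 and from 221 to 232 in NIKsh#2. The largest change of the 6, -1.90, was thus in the non-targeting culture of Z-138, beyond the -1.05 and -0.59 of the NIK hairpins. The fitted changes were -0.57 ± 0.32 in NIKsh (adjusted p = 0.678) and -0.75 ± 0.46 in NTC (adjusted p = 0.895), and without the Z-138 NTC culture the second was 0.39. The ACTB ratio was higher with doxycycline in the same 3 cultures. It was also higher in Maver-1 NIKsh#2 (3.655 and then 3.801), where CD37 changed by 0.07. In Maver-1 NIKsh#1 the ratio was lower (4.68 and then 4.32) and CD37 changed by -0.70, and in Maver-1 NTC it was lower and CD37 changed by 0.39. The part of RNA quality in these changes was not tested. With the ACTB ratio as a covariate the change of CD37 was -0.22 in NIKsh and -0.36 in NTC. The NIKsh change of CD24 was then 0.14 (unadjusted p of the limma fit 0.0594), that of MS4A1 0.034 and that of CD22 -0.0318, while CD72 (0.63), FCRLA (0.23) and FCER2 (0.35) moved by less than 0.01.

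FCER2, the IgE receptor gene, gave NIKsh changes of -0.46 and 0.80 in Z-138 and 0.35 and 0.72 in Maver-1, where its signals lay between 5.0 and 14.1. Its Z-138 signals went from 27.2 to 31.7 in NTC, from 37.8 to 26.6 in NIKsh#1 and from 34.7 to 62.4 in NIKsh#2, so the hairpins took opposite signs in the line where it is clearly measured. The fitted change was 0.35 ± 0.25 (adjusted p = 0.75), and it was 0.62 without Z-138 NIKsh#1 and 0.20 without Z-138 NIKsh#2. On the probe set 206759_at the Maver-1 NTC culture went from 3.4 to 15.5, a change of 1.53, against 0.01 on the brightest.

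Within Z-138 the NIKsh changes of 4 members came close to the threshold without passing it. They were 0.90 ± 0.20 for CD72 (adjusted p = 0.0544), 0.33 ± 0.07 for FCRLA (adjusted p = 0.0598), 0.32 ± 0.07 for CD24 (adjusted p = 0.0649) and 0.24 ± 0.06 for MS4A1 (adjusted p = 0.0665). The other 4 were -0.82 ± 0.27 for CD37 (adjusted p = 0.174), 0.76 ± 0.27 for FCRL1 (adjusted p = 0.209), 0.57 ± 0.30 for CD22 (adjusted p = 0.382) and 0.17 ± 0.35 for FCER2 (adjusted p = 0.862). Of all genes 2.14% passed, and 6 of 8 members had an unadjusted p under 0.05, beside 16.2% of all genes. The fit over every probe set called 3 of the members' 21 probe sets, beside 1.22% of all probe sets (279 of 22823). These were CD24 266_s_at (0.54 ± 0.10, adjusted p = 0.0385) and 209771_x_at (0.40 ± 0.07, adjusted p = 0.046) and FCRLA 235400_at (0.64 ± 0.11, adjusted p = 0.0401). Depending on the culture left out, 0 to 4 of the 8 genes passed: all 4 named here without Maver-1 NIKsh#1 or without Maver-1 NIKsh#2, and CD72 and FCRLA without Z-138 NIKsh#1. The share of all genes that passed was also higher in those settings, at 4.62%, 4.54% and 7.95% (534, 524 and 918 genes) in place of 2.14% (247 genes). The change was positive under both hairpins in 6 members, beside 31.5% of all genes, while the NTC culture of the line, 1 array per dose, gave a negative change in 5 of those 6 and 0.14 in CD24.

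Markers of plasma cells, the secreting end stage of B cells, are given beside this result. Of 8 such genes tested 0 had a positive NIKsh change in Z-138, with a median of -0.28 against 0.03 over all genes. Of the 8, 1 passed, where 2.14% of all genes did: MZB1, a chaperone of antibody assembly, fell by 1.21 (adjusted p = 0.00315). MZB1 changed by -1.14 and -1.27 under the 2 hairpins, and by -0.79 in the Z-138 NTC culture. The summed signal of the 8 genes in the Z-138 NIKsh cultures was 12113 to 12148 without and 9022 to 11758 with doxycycline, and in the NTC culture 12508 and 12383. In Maver-1 it lay between 7257 and 8469 on all arrays. Between the untreated lines 5 of the 8 were higher in Z-138 (25.5% of all genes) and 2 lower (34.8%). The perforin gene PRF1, from the T and NK cell markers, also fell in the Z-138 fit, with changes of -1.41 and -1.58 (adjusted p = 0.00685) and 0.06 in the NTC culture. Of the 5 markers of that list tested, it was the 1 that passed. The other direction was met by 3 of the 5, and the median change of all 5 was 0.205, against 0.03 over all genes. The summed signal of that list, PRF1 included, in the Z-138 NIKsh cultures was 402 to 494 without and 299 to 346 with doxycycline, and in the NTC culture 557 and 559. The part of these genes in the antigens' changes was not tested.

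Within Maver-1 none of the 8 passed and 0.0% of all genes did, with 0 members at an unadjusted p under 0.05, beside 3.97% of all genes. The Maver-1 changes ran from -0.48 ± 0.30 (CD22) to 0.53 ± 0.35 (FCER2). The difference in NIKsh change between the lines passed in none of the members, beside 0.121% of all genes, and 3 members (MS4A1, CD22 and CD24) had an unadjusted p under 0.05, beside 8.59%. Both Z-138 NIKsh changes lay above both Maver-1 NIKsh changes in 6 of 8 members, as in 21.8% of all genes.

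**Figure D4:**
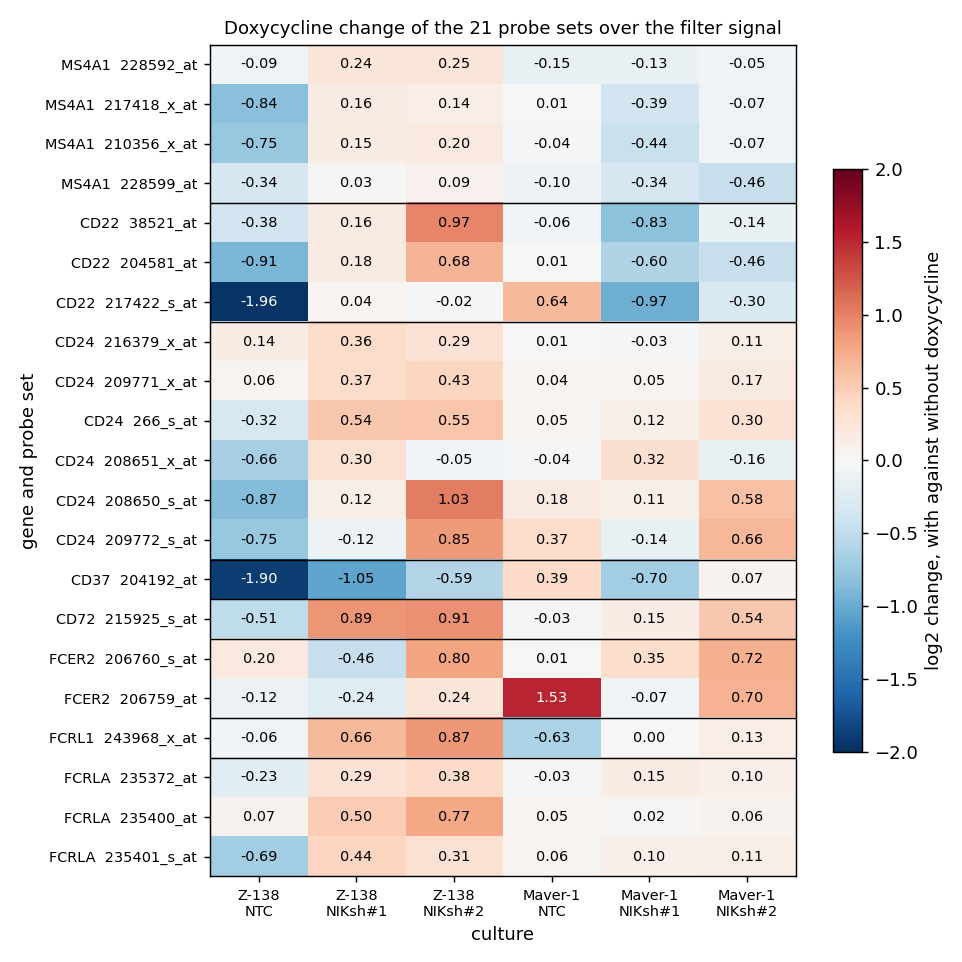
Change in log2 signal with against without doxycycline for each of the 21 probe sets over the filter (vertical) in each culture (horizontal), red for higher and blue for lower with doxycycline. In the Z-138 NTC column the probe sets of CD24 run from 0.14 to -0.87, and CD22 217422_s_at (-1.96) and CD37 (-1.90) are the lowest.

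The other genes of these pathways were taken from lists chosen by name. Of 32 other B cell surface antigens over the filter, 0 passed over the NIKsh cultures, and 6 had an unadjusted p under 0.05 (8.98% of all genes did). In the Z-138 fit, where 2.14% of all genes passed, 2 rose and 3 fell. CD40, the costimulatory receptor upstream of NIK, fell by 1.88, CD80, the ligand of CD28, fell by 2.02, and PECAM1, an inhibitory adhesion receptor, fell by 1.77. ROR1, a receptor of Wnt ligands and antibody target, rose by 1.07, and LY9, a SLAM family receptor, rose by 1.03. In the Z-138 NTC culture the changes were -0.67 for CD40, 0.19 for CD80, 0.755 for PECAM1, -0.62 for ROR1 and 1.14 for LY9. CD40 and LY9 thus moved in the same direction with the control hairpin.

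Of 10 Fc receptor relatives over the filter, 0 passed over the NIKsh cultures (3 at an unadjusted p under 0.05), and their median change was 0.19, against 0.01 over all genes. The smallest p belonged to PIGR, the polymeric immunoglobulin receptor (0.92 ± 0.22, adjusted p = 0.205), FCRLB, a close relative of FCRLA (0.65 ± 0.20, adjusted p = 0.354), and FCRL5 (0.39 ± 0.17, adjusted p = 0.536). All 3 had negative NTC changes in both lines, from -1.66 to -0.38. Between the untreated lines, 5 of the 10 were lower in Z-138 (34.8% of all genes) and 3 higher (25.5%). Lower were FCGRT, the neonatal Fc receptor (-2.87 ± 0.22, adjusted p = 1.54e-07), FCRL2 (-4.46 ± 0.19, adjusted p = 5.63e-10), FCRL3 (-3.23 ± 0.31, adjusted p = 1.2e-06) and FCRL5 (-0.85 ± 0.19, adjusted p = 0.00144). PIGR (1.56 ± 0.20, adjusted p = 1.62e-05) and FCGR2A, an IgG receptor (1.43 ± 0.20, adjusted p = 3.66e-05), were higher. FCRL2 had a mean signal of 12.6 in Z-138, at the filter, and FCRL3 one of 3.4, so that, as for FCRL1, the Maver-1 signal of FCRL3 brought it into the test.

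Of 18 receptor partners and signalling genes 0 passed over the NIKsh cultures (2 at an unadjusted p under 0.05). SEMA4D, the CD72 ligand, passed in the Z-138 fit (0.51 ± 0.11, adjusted p = 0.0493), with -0.82 in the NTC culture of that line. Between the untreated lines 13 of the 18 passed, where 60.2% of all genes did. The kinases LYN (-0.80 ± 0.07) and BTK (-0.82 ± 0.10) and the phosphatase INPP5D (-1.29 ± 0.16) were lower in Z-138, and IFITM1, a partner of CD81, was higher there (4.06 ± 0.17). Of 17 B cell transcription factors 0 passed over the NIKsh cultures, and 6 had an unadjusted p under 0.05 (8.98% of all genes). The smallest p belonged to FOXO1 (0.50 ± 0.13, adjusted p = 0.264), PAX5 (0.59 ± 0.18, adjusted p = 0.333) and IKZF3, the Aiolos gene (-0.41 ± 0.13, adjusted p = 0.346). FOXO1 rose in the Z-138 fit (0.80 ± 0.12, adjusted p = 0.0108), with -0.52 in the NTC culture. Of 11 genes of the NOTCH pathway, known to act on FCER2 and CR2, 0 passed over the NIKsh cultures (2 at an unadjusted p under 0.05). Between the lines 8 of them passed, where 60.2% of all genes did, 5 higher in Z-138 and 3 lower. The ligand gene JAG1 (3.49 ± 0.16), NOTCH1 (2.5 ± 0.22) and the pathway's regulator NRARP (1.28 ± 0.13) were among the higher. The NOTCH target HEY1 (-2.47 ± 0.23), DTX1 (-0.84 ± 0.14) and SPEN (-0.39 ± 0.07) were the lower.

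Of the family relatives, 2 MS4A genes and 15 tetraspanins passed the filter, and 0 of either changed over the NIKsh cultures, with 0 at an unadjusted p under 0.05. MS4A4A and MS4A7 were lower in untreated Z-138 by the same test (-3.60 ± 0.31 and -1.80 ± 0.24). Their mean signals in Z-138 were 0.6 and 9.5, under the filter, so a difference between the lines was built into their being tested. Of the tetraspanins 9 were lower (34.8% of all genes) and 3 higher (25.5%). CD53, a leukocyte tetraspanin like CD37, differed by -0.53 ± 0.07 (adjusted p = 1.81e-05).

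How the members varied together was described by Pearson's r of their log2 signals over the 12 arrays after the mean of the line was taken away, with no test, since arrays of a culture share their cells and all members of an array share its RNA. CD24 and CD72 had the highest r of any pair (0.89), followed by CD72 and FCRLA (0.87) and by MS4A1 with CD24 (0.78), with FCRLA (0.76) and with CD72 (0.74). CD37 stood apart, with r between -0.26 (FCRL1) and 0.29 (CD72) to the other members. Among all other genes tested, those most like CD72 were CACNA1A (r = 0.95) and PIGR (r = 0.94), and those most like FCRLA were RAB30 (0.94) and IGIP (0.92). For CD24 they were SYNJ2 (0.98) and TRIM22 (0.97), for MS4A1 SOS2 (0.94) and LOC100506639 (0.93), and for CD37 CBX6 (0.97) and SNX22 (0.94). CD22 was closest to RMND1 (0.92) and SYNE2 (0.91), FCER2 to FGD2 (0.91) and HUS1 (0.91), and FCRL1 to PLCXD2 (0.91) and PPIL4 (0.91).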

How the data were processed

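Total RNA of the 12 cultures was amplified, labelled and read on 3' expression arrays. The deposited values are linear signal intensity per probe set, made by the authors with MAS5 per the submitters' processing notes, and the mean without the lowest and highest 2% of probe sets was 149.98 on every array. Probe sets were named from the platform annotation: of 54675, 41097 had 1 symbol, 1801 several and 11777 were not named here, and 99.9% of those with 1 symbol matched RefSeq by gene ID. Signals were taken to log2(signal + 3), which understates changes of dim genes. The probe set with the highest mean stood for its gene, and 11548 genes whose mean signal reached 12.55 (the median over arrays of their medians) were kept. Detection calls were not used here.

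Tests used limma 3.58.1 (R 4.3.3) with an intensity trend, two-sided moderated tests and Benjamini-Hochberg adjustment over all genes tested at 0.05. Tables were made with Python 3.11.15 and pandas 2.3.3. Culture (line and hairpin) was a fixed block, since the arrays at both doses hold cells of 1 line and construct per the labels, which do not say that 1 flask was split. The deviations of same-hairpin arrays from their group mean correlated across genes with r = -0.038 (Z-138) and r = 0.202 (Maver-1). The doxycycline changes in NIKsh and NTC and their difference left 4 residual degrees of freedom, and the fit per line left 2. Untreated lines were compared on 3 arrays each (4 residual degrees of freedom), and untreated NIKsh with NTC with the line as a term (3). Nothing says that replicates are independent cultures, so p-values measure the spread between these arrays, whose number limits every precision. The script was tested on simulated data.

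All members were named whatever their values. From each list the text names genes that passed (up to 6 by smallest p per comparison) or else up to 3 with the smallest p in the NIKsh comparison, and for likeness the 2 genes with the highest r. The members and lists were chosen with earlier results of these data known. Alternatives changed the pseudocount, filter, normalization, probe set rule, array weights, trend, block, ACTB ratio as a covariate and the cultures used.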

Additional observations from a re-analysis of the deposited data

Results flagged for a closer look

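The NIKsh change of MS4A1 was positive in both Z-138 cultures and negative in both Maver-1 cultures, a difference of 0.33 on the log2 scale that did not pass limma's test (adjusted p = 0.273). CD22 showed the same opposite signs, with a difference of 1.05 (adjusted p = 0.543). For CD72 all 4 NIKsh changes were positive and both NTC changes negative, a difference of 0.89 (adjusted p = 0.876). On the probe set standing for each gene, FCRL1 and FCRLA had the same signs, with differences of 0.76 (adjusted p = 0.884) and 0.36 (adjusted p = 0.878). On the FCRLA probe set 235400_at both NTC changes were positive. The FCRL1 probe set 235982_at, under the filter with a mean of 10.2, gave positive changes in 2 of the 4 NIKsh cultures.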

How the results depend on the processing

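The 0 members called for the doxycycline change in NIKsh or NTC, for the line difference in that change and within Maver-1 stayed 0 under every alternative run. Without the replicate block, and with culture as a random block, 1 member (CD72) passed in the difference between NIKsh and NTC, and 3 and 4 passed in Z-138. Over all genes 103 and 116 passed in the difference between NIKsh and NTC, in place of 0. Leaving out 1 culture gave 0 to 4 in Z-138. Between the untreated lines 3 members passed at the stricter filter of 123, which tested 4 of them, and 5 to 7 otherwise. Over all genes 4770 of 7631 passed at the stricter filter. With the mean of both doses per culture, 6507 of 11548 genes passed, beside 5 of the 8 members. Signs turned in values that did not pass. The NIKsh change of CD22 was -0.0541 with no replicate block, -0.0575 with a random block, -0.0296 with averaged probe sets, -0.138 with array weights, -0.0318 with the ACTB covariate and -0.27 to 0.33 over the cultures left out. Averaged probe sets also gave -0.0445 for MS4A1 in NIKsh, -0.15 for CD24 in NTC, -0.15 for FCER2 in the NIKsh against NTC difference and -0.13 for FCRL1 in Maver-1. With no block and with a random block, CD24 in NTC was -0.071 and -0.0761, CD22 in the NIKsh against NTC difference -0.0308 and -0.041, and FCRL1 in Maver-1 -0.13 and -0.11. CD37 in Maver-1 was 0.0147 with no block. Over the cultures left out, CD37 ran from -1.90 to 0.39 in NTC, from -0.96 to 1.33 in the NIKsh against NTC difference (-0.96 without Z-138 NTC) and from -0.70 to 0.0679 in Maver-1. CD22 ran from -0.0481 to 0.55 in the NIKsh against NTC difference, CD24 from -0.0267 to 0.11 in Maver-1, FCER2 between -0.46 and 0.79 in Z-138 and between -0.997 and 0.26 for the lines' difference, and untreated FCRLA from -0.12 to 0.0135. The cause of these turns was not tested. Genes passing in Z-138 went from 247 to 724 with no replicate block, 892 with a random block and 23 without the intensity trend, and genes passing in NIKsh from 5 to 84, 82 and 3. Signals near the filter limit CR2, FCER2 in Maver-1 and FCRL1 in Z-138.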
